A study of Homo sapiens with 6 samples.

Results

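The genes described here serve the making and modification of ribosomal RNA and the assembly of the small subunit of the ribosome. They are 35 genes for proteins of the small-subunit processome, the box C/D and box H/ACA small nucleolar ribonucleoproteins (snoRNPs), RNA polymerase I and a few nucleolar factors. The genes were chosen by name, with earlier results of these data known. All 35 matched 1 row each of the 60612 genes in the table, and all 35 passed the filter on low counts that left 18863 genes to test. Messenger RNA was sequenced from PANC-1, an established cell line of human pancreatic carcinoma, in 6 libraries. By their titles and descriptions, 3 libraries are taken as given D(+)-raffinose pentahydrate, a plant trisaccharide, at 50 µM for 24 h. The other 3 are taken as untreated PANC-1 cells, with no vehicle or time named. The titles themselves give no dose or time. The treatment field carries the same text on raffinose for all 6 libraries, so the grouping rests on the titles and descriptions. Separate cultures are not mentioned anywhere, so the p-values below measure the spread between libraries, which may be technical.

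Ribosome production starts in the nucleolus, where RNA polymerase I copies the ribosomal DNA into a long precursor. The processome, a large particle built on that precursor with the U3 snoRNP, folds it and cuts out the RNA of the small subunit. Box C/D snoRNPs place methyl groups on ribosomal RNA and box H/ACA snoRNPs convert uridine to pseudouridine, each guided by a small nucleolar RNA (snoRNA). Proliferating tumour cells are known for high output of this pathway, and many of its genes are known targets of MYC.

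Library totals lay between 59723420 and 66063664 counts. The 35 genes together took 1.02% to 1.10% of them with raffinose and 1.12% to 1.16% without. Most of that share was NPM1, FBL and NCL, with log2 fold changes of -0.05, -0.27 and 0.07. It therefore says little about the other genes. The mitochondrial share was 9.35% to 9.66% with raffinose and 8.47% to 9.54% without. Of the 6 epithelial markers, KRT18 and KRT8 stood at a mean of 521 and 393 FPKM (fragments scaled to transcript length and library size) in untreated cells, while KRT19 and EPCAM stood at 0.119 and 0.166. The summed level of these 6 markers, nearly all of it KRT18 and KRT8, was 655 to 687 FPKM with raffinose and 851 to 988 without. That difference runs the same way as that of most genes below, and its part in them was not tested. By log2 fold change, DESeq2 called KRT18 (-0.46, adjusted p = 0.00136), KRT8 (-0.55, adjusted p = 0.00633) and KRT7 (-0.58, adjusted p = 0.0322) lower. None of the 6 was called by edgeR. CDH1 had -0.15, while KRT19 (0.39) and EPCAM (0.41), both at low levels, went the other way. The 10 fibroblast markers summed to 44.6 to 47.3 and 48.0 to 52.2 FPKM. Nearly all of that was COL3A1, at a mean of 47.0 FPKM in untreated cells, which DESeq2 called lower (-0.22, adjusted p = 0.0372) and edgeR did not (adjusted p = 0.178). COL1A1, at 3.10 FPKM, was higher without overlap (0.24), and DCN, PDGFRA and FAP were near 0. The 10 leukocyte markers summed to 7.16 to 9.64 and 12.5 to 16.1 FPKM, nearly all of it CD68. DESeq2 called CD68 lower (-0.81, adjusted p = 0.000655) and edgeR did not (adjusted p = 0.146). CD3E, CD3D and MS4A1 were listed as without reads and PTPRC was near 0.

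Levels within the complexes were very unequal. FPKM values, which are per length, are used to compare genes. Among the box C/D proteins the methyltransferase fibrillarin, FBL, stood at 1127 ± 51.1 FPKM in untreated cells (SD, n = 3). Its partners on the same snoRNAs stood far lower: NOP56 at 65.2 ± 11.02, NOP58 at 48.3 ± 1.11 and SNU13, which binds the RNA first, at 24.6 ± 0.429 FPKM. NOP56 and NOP58 differed by less than 2 SD of NOP56, but no library put NOP56 below NOP58. The ratio of FBL to NOP58 was 17.2 to 23.7 over the 6 libraries and that of FBL to SNU13 39.8 to 49.2. The second scaffold gave the same picture, with a ratio of FBL to NOP56 of 14.8 to 20.4.

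Box H/ACA genes spanned a wider range. NOP10, the smallest protein of the complex, stood at 349.5 ± 29.5 FPKM and NHP2 at 151 ± 8.30. The pseudouridine synthase dyskerin, DKC1, stood at 41.1 ± 0.562, GAR1 at 20.6 ± 0.443, and the assembly factor NAF1, which GAR1 replaces on the mature particle, at 2.74 ± 0.309 FPKM. No neighbours in this order overlapped in the untreated libraries. The ratio of GAR1 to DKC1 varied least of those computed, at 0.487 to 0.559 over the 6 libraries.

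Nucleophosmin, NPM1, an abundant nucleolar chaperone, stood at 654 ± 28.1 FPKM and nucleolin, NCL, at 123 ± 4.49. The 8 processome genes were much lower, from 6.02 ± 0.813 for UTP20 to 23.4 ± 1.38 for WDR43. For RNA polymerase I, the largest subunit POLR1A stood at 12.4 ± 1.78, the second largest POLR1B at 6.10 ± 0.333, POLR1C, which RNA polymerase III shares, at 4.46 ± 0.176, and POLR1E at 42.2 ± 0.677 FPKM. NPM1 shares sequence with many pseudogenes: 46 rows of that name hold 6.96% as many counts as NPM1. RRN3 has 4 such rows that hold 9.42%, which makes the values of both genes less certain. Only pseudogenes named after their gene were searched, so others may be missed.

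**Figure D1:**
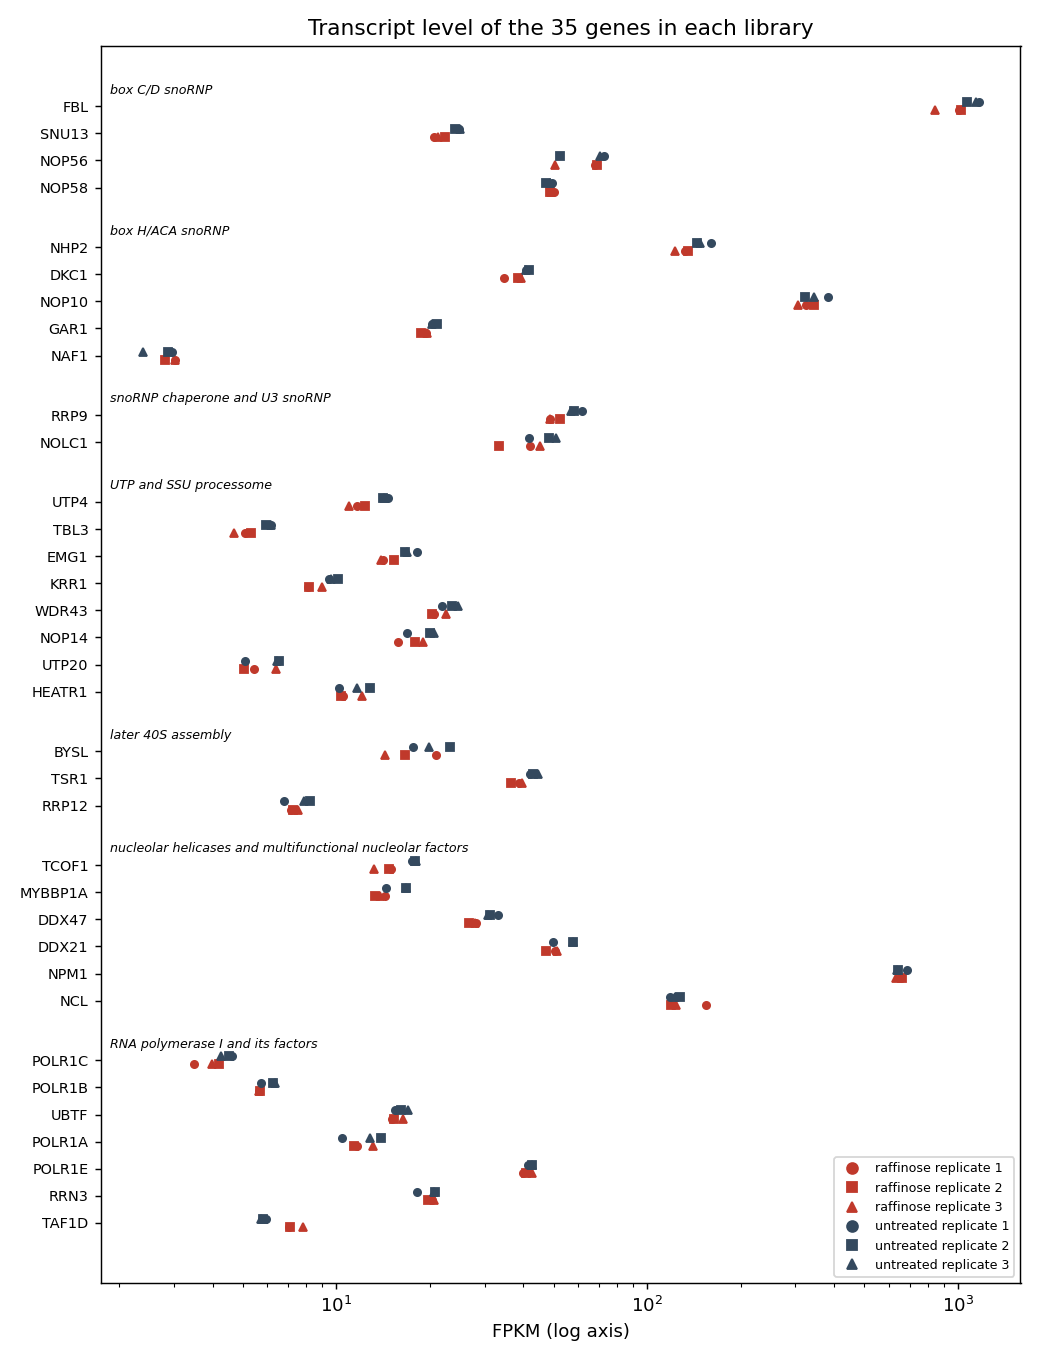
FPKM on a log axis for each of the 35 genes, grouped by role, with 1 point per library (red, raffinose; dark blue, untreated; the marker shape gives the replicate number). FBL stood at 844 to 1166 FPKM in all 6 libraries, above NPM1 and far above the other box C/D genes.

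FBL lies in a stretch of chromosome 19 with several very highly expressed genes, which was looked at after its level had been seen. The deposited table places FBL (ENSG00000105202) on chromosome 19 at 39834458 to 39846379, minus strand. Of the 54 tested protein-coding genes within 1 Mb of it, 6 had at least 100 FPKM in untreated cells, or 11.1%, against 2.70% of the tested coding genes of chromosome 19 and 2.13% over all chromosomes. They were the ribosomal protein gene RPS16 (1753 FPKM), the proteasome subunit gene PSMC4 (895), the transcription elongation genes PAF1 (450) and SUPT5H (122), the mitochondrial import gene TIMM50 (139) and EID2 (101). NHP2 had the same share among its 27 tested neighbours, 3 genes or 11.1%. The median of the 54 genes around FBL was 11.9 FPKM. Around the 34 other genes of the set the same median ran from 0.399 to 9.19, the highest being that of NOP56. AKT2, a kinase gene whose amplification PANC-1 is known to carry, lies 384 kb from FBL and stood at 58.7 FPKM. DNA copy number was not measured here.

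**Figure D2:**
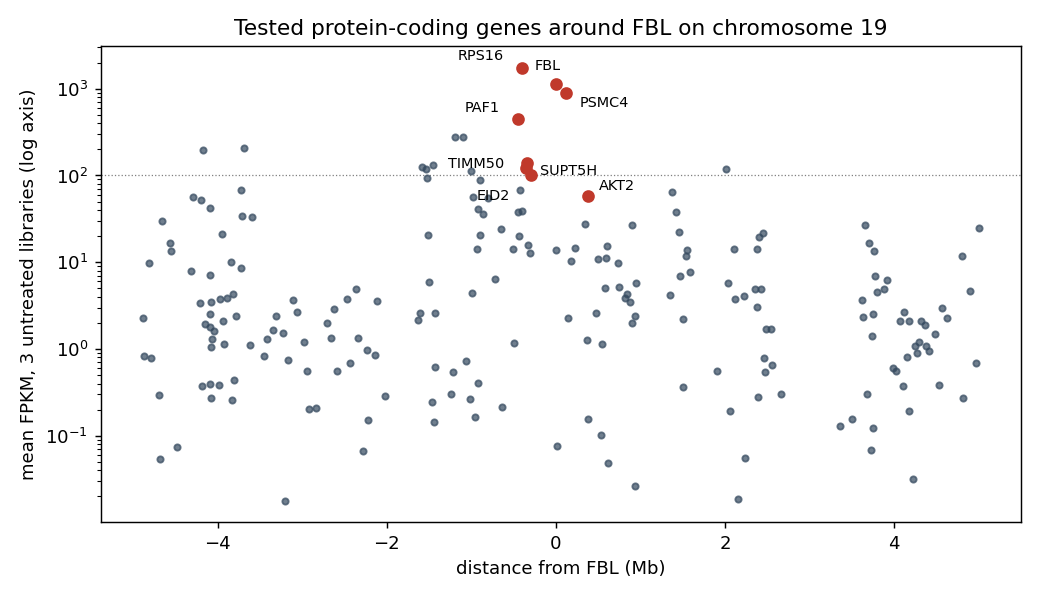
Mean FPKM in the 3 untreated libraries (log axis) of each tested protein-coding gene against its distance from FBL in Mb, with the named genes in red and a dotted line at 100 FPKM. PAF1, RPS16, SUPT5H, TIMM50, EID2, FBL and PSMC4 lie close together at or above the line.

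A feature the choice of genes did not use is the sequence at their promoters. RefSeq promoter windows of 300 bases (250 before and 50 after the start of transcription, build GRCh38.p14) matched 28 of the 35 genes by symbol. These 28 genes had 34 windows, and a motif was counted for a gene if any of its windows held it. NOP58, SNU13, NAF1, NOLC1, RRP12, TCOF1 and POLR1E had no entry. The palindrome CACGTG, the E-box that MYC with MAX is known to bind, was present in the windows of 11 of 28 genes, or 39.3%. It was present in 12.4% of the 11593 tested genes with a window and in 8.77% of all 27305 genes with one. Of 12 matches, 11 began between positions -31 and 32 from the start. DDX21 and GAR1 hold CACGTG only in the window of a later start. The window at their earlier start is without it. The windows below run from position -70 to 30. They are shown because they place that motif at a listed start of 6 genes with a negative log2 fold change. KRR1 (negative) and TAF1D (positive) stand beside them as genes without it. Of these 8, the groups of UTP20 overlapped. NOP10 and NOP14, whose groups also overlapped, hold CACGTG in the same range and are not shown. All 11 genes with it were negative, as were all of the 17 without it but NCL and TAF1D. Capitals mark CACGTG.
UTP4, chr16:69132579-69132678, plus strand: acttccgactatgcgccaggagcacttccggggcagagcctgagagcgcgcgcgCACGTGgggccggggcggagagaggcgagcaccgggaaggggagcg
RRP9, chr3:51941875-51941974, minus strand: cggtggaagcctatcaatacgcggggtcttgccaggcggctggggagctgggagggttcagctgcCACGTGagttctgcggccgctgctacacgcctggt
FBL, chr19:39846350-39846449, minus strand: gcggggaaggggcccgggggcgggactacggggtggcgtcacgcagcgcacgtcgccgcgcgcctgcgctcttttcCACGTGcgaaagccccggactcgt
DDX21, chr10:68956577-68956676, plus strand: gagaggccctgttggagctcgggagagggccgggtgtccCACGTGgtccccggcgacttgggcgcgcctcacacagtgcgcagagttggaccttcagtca
WDR43, chr2:28894597-28894696, plus strand: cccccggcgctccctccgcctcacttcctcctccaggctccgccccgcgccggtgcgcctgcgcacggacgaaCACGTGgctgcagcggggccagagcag
UTP20, chr12:101280035-101280134, plus strand: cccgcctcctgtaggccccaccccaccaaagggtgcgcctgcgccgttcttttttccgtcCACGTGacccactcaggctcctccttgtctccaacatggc
KRR1, chr12:75511580-75511679, minus strand: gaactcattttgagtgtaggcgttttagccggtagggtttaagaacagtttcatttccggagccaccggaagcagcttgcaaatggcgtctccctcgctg
TAF1D, chr11:93741466-93741565, minus strand: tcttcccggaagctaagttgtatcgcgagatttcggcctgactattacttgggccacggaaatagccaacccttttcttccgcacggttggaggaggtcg

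CACGTG and the other motifs were searched on both strands, and none contains another. CCGGAAG, a core of ETS factor sites, was in the windows of 14 of the 28 genes (50.0%, against 21.2% of tested genes), among them KRR1 and TAF1D. GGGCGG, a core of SP1 sites, was in 23 (82.1% against 75.2%), and AAGATGG, a core of YY1 sites, in 5 (17.9% against 9.04%). The median log2 fold change was -0.18 in the 11 genes with CACGTG and -0.15 in the 17 without. The other motifs gave -0.22 against -0.15 for CCGGAAG, -0.18 against -0.07 for GGGCGG and -0.24 against -0.15 for AAGATGG. A match is a description of these letters and shows no binding.

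Most of these genes stood slightly lower with raffinose, by amounts too small to pass the test gene by gene. Of the 35, 32 had a negative log2 fold change, with a median of -0.17 and a range of -0.35 to 0.29. Over all 18863 tested genes 49.0% were negative and the median was 0.0059. Because the set was chosen with earlier results of these data known, the counts and shares here describe it and do not test it. By edgeR's quasi-likelihood test with Benjamini-Hochberg adjustment over all genes, 0 of the 35 were called lower and 0 higher, where 0.0848% of tested genes were called lower and 0.0371% higher. At an unadjusted edgeR p under 0.05, 17 were lower and 1 higher, against 7.08% and 6.21% of all tested genes. Under 0.01, 9 were lower and 1 higher, against 2.64% and 1.69%. DESeq2, a second count test, called 5 lower (UTP4, TBL3, KRR1, TSR1 and TCOF1) and 1 higher (TAF1D), against 2.05% and 1.34%. On simulated counts DESeq2 made more false calls than edgeR, and calls by DESeq2 alone are treated as less certain. Those counts were drawn with edgeR's own dispersion estimates, and every planted change was larger than that of any of the 35 genes. They therefore give no error rate for calls of the size seen here. In 19 of the 35 genes every raffinose library lay below every untreated one, against 10.9% of tested genes, and in 1 every raffinose library lay above, against 10.6%. In bulk RNA, fewer cells of a kind and less RNA per cell cannot be told apart.

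The median shift was alike in the 3 raffinose libraries, while single genes varied between them. Relative to the untreated mean, the median deviation of the 35 genes in log2 CPM (counts scaled to library size) was -0.17, -0.15 and -0.16 for the raffinose libraries in order of replicate number. For the untreated libraries it was 0.0032, -0.0070 and 0.0093. The untreated libraries form that mean, so their deviations average 0 in each gene by construction. Below the untreated mean lay 29, 32 and 29 of the 35 genes in the raffinose libraries and 16 to 19 in the untreated ones. Single genes differed more: NOP56 deviated by 0.04 in raffinose replicate 1 and -0.41 in replicate 3. UTP20 went the other way, with -0.17 and 0.04. The same median over all tested genes lay between 0.0047 and 0.020 in every library.

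**Figure D3:**
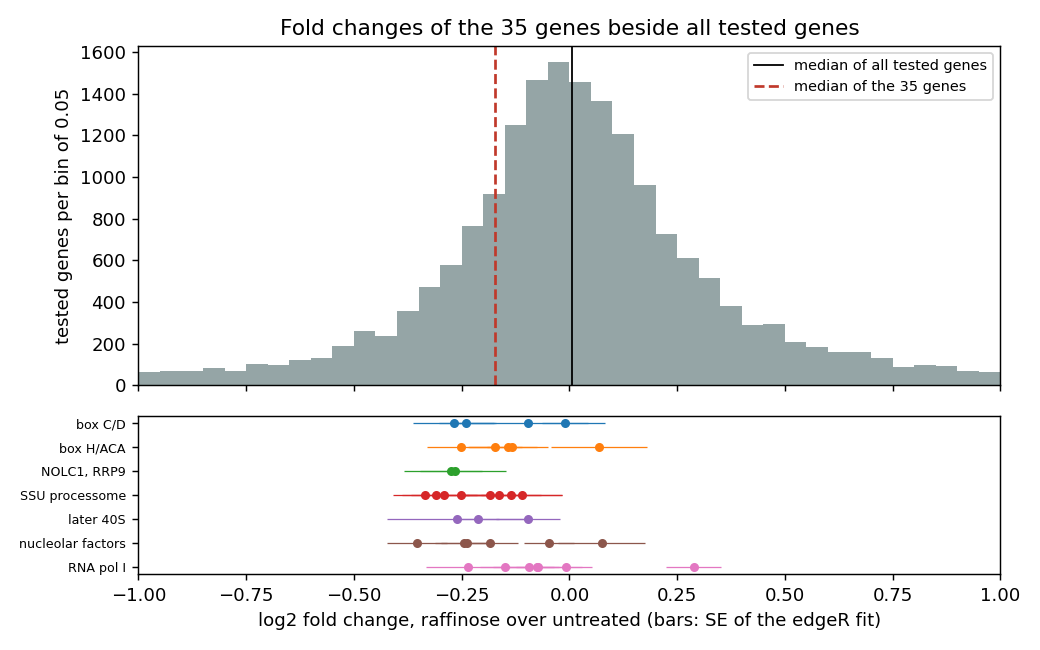
Upper panel: number of tested genes per bin of log2 fold change (raffinose over untreated), with the medians of all tested genes and of the 35 genes as lines; 945 tested genes lie outside the plotted range. Lower panel: each of the 35 genes by role, with the SE of the edgeR fit as bars. Most points sit left of 0, and TAF1D at 0.29 is the one far to the right.

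All 4 box C/D genes were negative, with a median of -0.17, and in 2 of them the groups did not overlap. Values per library follow the order of replicates 1, 2 and 3 throughout. FBL had 2562, 2636 and 2104 CPM with raffinose and 3093, 2739 and 2954 CPM without. All 3 raffinose libraries lay below all untreated ones, with raffinose replicate 3 lowest. The log2 fold change was -0.27 (SE 0.10, edgeR adjusted p = 0.314). SNU13, the RNA-binding protein that opens box C/D assembly, had 71.4, 78.6 and 72.4 CPM with raffinose and 89.9, 84.6 and 88.1 without, again with no overlap (-0.24, SE 0.06, edgeR adjusted p = 0.215). C22orf46 shares 1628 bases with SNU13 on the other strand and had 544, 274 and 448 counts with raffinose and 1005, 882 and 381 without. A processed pseudogene on the same strand shares 381 bases and had 156, 140 and 165 counts with raffinose and 180, 152 and 128 without. The scaffold proteins NOP56 and NOP58 had log2 fold changes of -0.10 (SE 0.18) and -0.01 (SE 0.05) with overlapping groups. Both scaffold genes turned positive without raffinose replicate 3 or without untreated replicate 1, and NOP58 also on the FPKM scale and with an FPKM filter.

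Of the box H/ACA genes, 4 of 5 were negative. NHP2, an RNA-binding core protein, had 225, 233 and 205 CPM with raffinose and 285, 249 and 255 CPM without. The groups did not overlap, and the log2 fold change was -0.25 (SE 0.08, edgeR adjusted p = 0.269). DKC1 had 173, 194 and 192 CPM with raffinose and 213, 210.5 and 207 without, which is also without overlap (-0.17, SE 0.06, edgeR adjusted p = 0.314). GAR1 was lower without overlap (-0.13, SE 0.06), while NOP10 (-0.14, SE 0.09) overlapped. NAF1 had 17.2, 16.2 and 16.9 CPM with raffinose and 17.6, 16.5 and 13.8 without. Its log2 fold change of 0.07 (SE 0.11) turned to -0.03 without untreated replicate 3, the library with the low value.

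RRP9, the U3-specific snoRNP protein, had 88.8, 97.4 and 87.6 CPM with raffinose and 118, 108 and 106 CPM without. No libraries overlapped (-0.27, SE 0.07, edgeR adjusted p = 0.212). NOLC1, a chaperone that accompanies snoRNPs, had 197, 159 and 209 CPM with raffinose and 206, 231 and 244 without. Its log2 fold change was of the same size at -0.27, but raffinose replicate 3 lay above untreated replicate 1 and the SE was 0.12.

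All 8 processome genes were negative, with a median of -0.22. UTP4 (also called cirhin, ENSG00000141076, chromosome 16, 69131291 to 69231130, plus strand), a subunit of the subcomplex that first joins the precursor, had 77.3, 83.2 and 71.7 CPM with raffinose and 102, 95.0 and 96.4 CPM without. Every raffinose library was below every untreated one, and the log2 fold change was -0.34 (SE 0.07). DESeq2 called it lower (adjusted p = 0.0181), while edgeR did not (adjusted p = 0.170). UTP4 shares 44002 bases with SNTB2 on the same strand and 1298 with CHTF8 on the other, which had log2 fold changes of 0.07 and -0.10.

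TBL3, a WD-repeat scaffold of the U3-binding subcomplex, had 43.0, 45.5 and 39.0 CPM with raffinose and 54.3, 50.7 and 53.0 without. The log2 fold change of -0.31 (SE 0.08) gave an adjusted p of 0.0491 by DESeq2 and 0.201 by edgeR. KRR1, an assembly factor with an RNA-binding fold, had 103, 105 and 112 CPM with raffinose and 126, 130 and 125 without. The gap between its groups was wider than the spread within either (-0.25, SE 0.06), with an adjusted p of 0.0338 by DESeq2 and 0.183 by edgeR. EMG1, a methyltransferase that modifies the RNA of the small subunit, had 104.5, 115 and 102 CPM with raffinose and 141, 125 and 127 without. It too did not overlap (-0.29, SE 0.08, edgeR adjusted p = 0.215), and LPCAT3, which overlaps it on the other strand, had a log2 fold change of 0.08.

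WDR43 was lower without overlap (-0.18, SE 0.06), while UTP20 (-0.14, SE 0.12), HEATR1 (-0.11, SE 0.09) and NOP14 (-0.16, SE 0.10) overlapped. Of these, UTP20 and HEATR1 are very large scaffold proteins with helical repeats. In all 3 overlapping genes untreated replicate 1 was the lowest untreated library.

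Among factors of later small-subunit assembly, TSR1, which blocks the subunit from joining translation early, had 220, 211 and 221 CPM with raffinose and 251, 247 and 258 CPM without. The 2 groups were tight and apart (-0.21, SE 0.05), with an adjusted p of 0.0416 by DESeq2 and 0.186 by edgeR. SRR, on the other strand over 2865 bases of TSR1, had a log2 fold change of 0.17. BYSL, which helps export the precursor, had 48.2, 38.8 and 32.3 CPM with raffinose and 42.4, 53.8 and 46.6 without. Raffinose replicate 1 lay above 2 untreated libraries, so its value of -0.26 (SE 0.16, edgeR adjusted p = 0.555) was within the spread. RRP12 had -0.10 (SE 0.07).

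The most negative log2 fold change belonged to TCOF1 (ENSG00000070814, chromosome 5, 150357629 to 150400308, plus strand). Its protein treacle ties RNA polymerase I transcription to snoRNPs and is the product mutated in Treacher Collins syndrome. TCOF1 had 203, 203 and 177 CPM with raffinose and 248.6, 245.7 and 249.9 CPM without. The untreated libraries were nearly equal and all raffinose libraries lay below them. The log2 fold change was -0.35 (SE 0.07), with an adjusted p of 0.00651 by DESeq2 and 0.146 by edgeR.

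The RNA helicase DDX47 had 168, 162 and 165 CPM with raffinose and 207, 189 and 187 without (-0.24, SE 0.06, edgeR adjusted p = 0.200). The groups did not overlap, as in MYBBP1A (-0.24, SE 0.07), a nucleolar protein that binds the polymerase and transcription factors, and in the helicase DDX21 (-0.18, SE 0.07). DDX47 shares 16660 bases with APOLD1 on the same strand (0.07 by DESeq2), and MYBBP1A shares 139 with SPNS2 on the other (-0.56). The abundant structural proteins stood apart from these. NCL had 1255, 981 and 986 CPM with raffinose and 1003, 1042 and 1014 CPM without. Raffinose replicate 1 alone was high, and the log2 fold change of 0.07 (SE 0.10) became -0.05 without it. NPM1 had -0.05 (SE 0.06), which became 0.0037 without untreated replicate 1.

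RNA polymerase I genes were closer to the background, with a median of -0.07 over 7 genes. POLR1B had 60.1, 61.4 and 59.0 CPM with raffinose and 63.8, 67.6 and 68.7 CPM without. All raffinose libraries were below the untreated ones (-0.15, SE 0.06, edgeR adjusted p = 0.362). POLR1C (-0.24, SE 0.10) and POLR1E (-0.07, SE 0.05) also did not overlap. POLR1C shares 40058 bases with XPO5 on the other strand, which had a log2 fold change of -0.07. POLR1A (-0.07, SE 0.10), the upstream binding factor UBTF (-0.09, SE 0.06) and the initiation factor RRN3 (-0.01, SE 0.06) overlapped. POLR1A turned to 0.0087 without untreated replicate 2, and RRN3 was positive in 5 of 15 alternatives. RRN3 shares 34279 bases with PDXDC1 on the other strand, which had 0.22 by DESeq2.

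**Figure D4:**
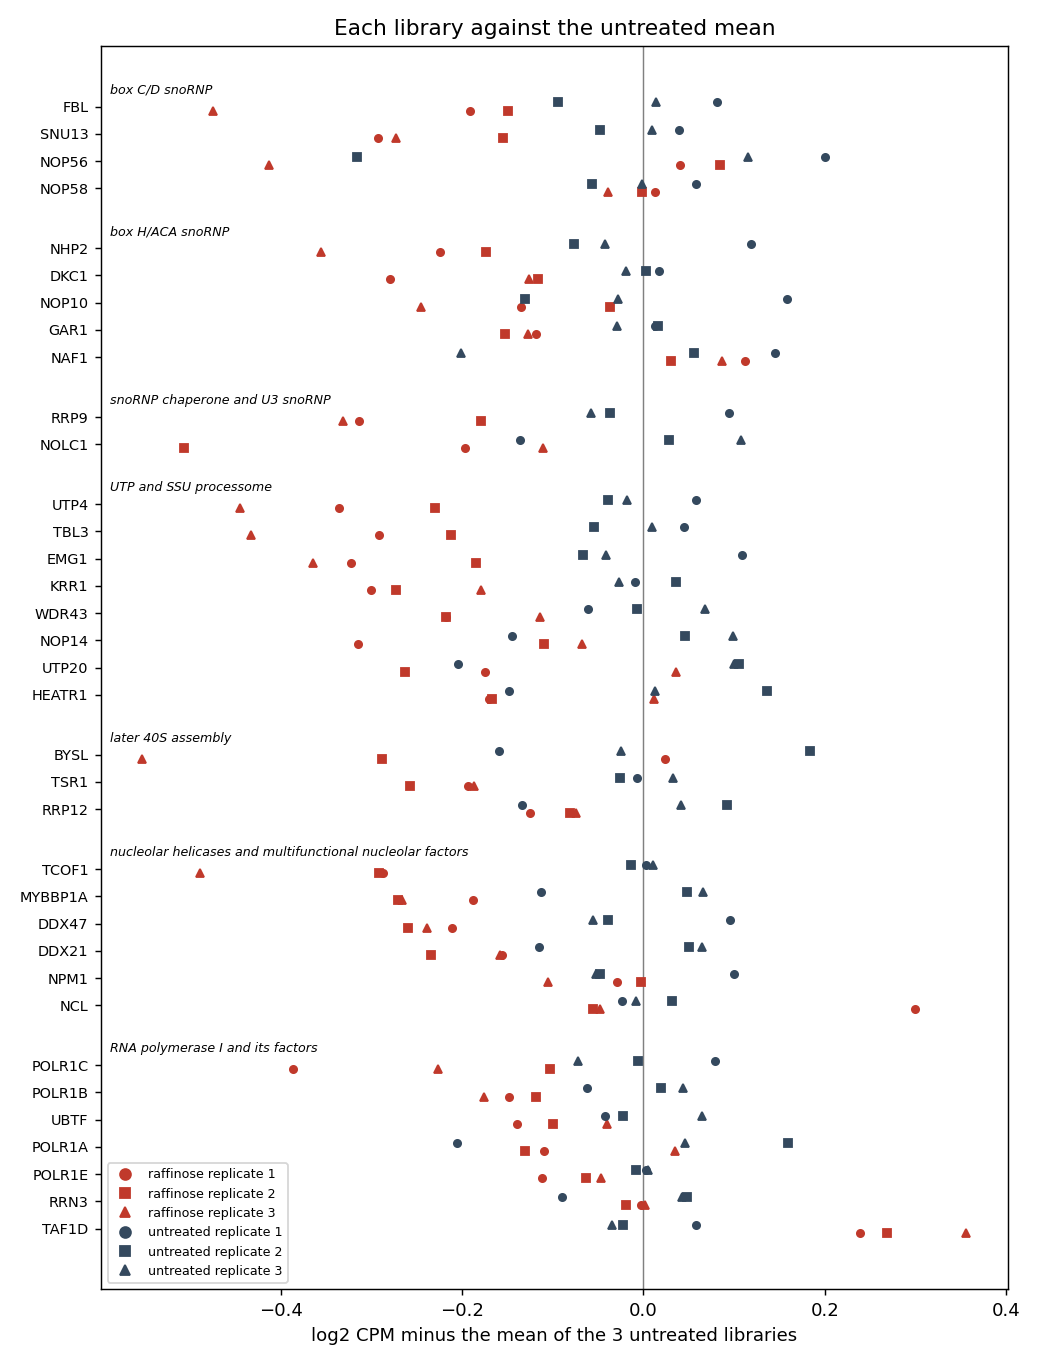
Log2 CPM of each gene in each library minus the mean of the 3 untreated libraries, by role (red, raffinose; dark blue, untreated; the marker shape gives the replicate number). UTP4, TBL3, TCOF1 and RRP9 show all red points left of all blue ones, and TAF1D shows all red points to the right.

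TAF1D went the other way. It is a subunit of selectivity factor 1 (SL1), the complex that brings RNA polymerase I to the ribosomal promoter. Its gene is deposited at chromosome 11, 93729948 to 93784391, minus strand (ENSG00000166012). The promoter window printed above, 93741466 to 93741565, lies inside this span and not at its upper end. TAF1D had 66.8, 68.2 and 72.4 CPM with raffinose and 58.9, 55.7 and 55.2 CPM without. All raffinose libraries lay above all untreated ones, with a log2 fold change of 0.29 (SE 0.06). DESeq2 called it higher (adjusted p = 0.0213) and edgeR did not (adjusted p = 0.171). Over the 15 alternatives its log2 fold change ran from 0.25 to 0.32. On the other strand, C11orf54 covers 23159 bases of TAF1D with a log2 fold change of 0.01, CEP295 covers 411 bases with 0.20 and MED17 covers 165 bases with 0.03. How the counting treated strand is not known from the labels or headers, so overlapping genes may share counts.

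Of the other SL1 subunits, TAF1C was also higher, at 22.8, 23.8 and 21.6 CPM with raffinose and 18.7, 17.2 and 16.0 without. No libraries overlapped (0.39, SE 0.09), and the adjusted p was 0.0232 by DESeq2 and 0.190 by edgeR. The remaining subunits were not called by either: TAF1A had -0.26 (SE 0.15), TAF1B 0.06 (SE 0.07) and the TATA-binding protein TBP -0.10 (SE 0.09). SL1 thus had subunits on both sides of 0.

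TAF1D is also a snoRNA host, a gene whose introns carry snoRNAs. Of the snoRNA genes listed, 27 lay inside 7 of the 35 genes on the same strand: 8 in TAF1D, 5 in NOP56, 4 in NOP58, 3 each in NCL and WDR43, and 2 each in DKC1 and TSR1. These 7 hosts had a median log2 fold change of -0.10 with 5 negative, and the 28 other genes one of -0.21 with 27 negative. Examples from TAF1D are shown because they are the RNAs that the snoRNP proteins above bind. The sequences are from GENCODE 29, 5′ to 3′. Capitals mark the core TGATGA of box C and CTGA of box D in SNORD5 and SNORD6, and the last ACA in SNORA8.
SNORD5, chr11:93733228-93733300, minus strand: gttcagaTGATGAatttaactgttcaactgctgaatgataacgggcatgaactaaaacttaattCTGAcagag
SNORD6, chr11:93731502-93731574, minus strand: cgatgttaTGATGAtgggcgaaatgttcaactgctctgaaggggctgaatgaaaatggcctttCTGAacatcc
SNORA8, chr11:93732361-93732499, minus strand: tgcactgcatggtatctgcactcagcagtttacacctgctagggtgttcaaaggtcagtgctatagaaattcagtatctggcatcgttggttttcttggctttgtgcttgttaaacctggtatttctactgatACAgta

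The rest of the pathway was taken from whole lists and not picked gene by gene. Of 49 other processome and 40S assembly genes listed, 47 were found by name. Of these 47, 34 were negative, with a median of -0.09, where 49.0% of all tested genes were negative. By edgeR with Benjamini-Hochberg adjustment 0 were called, and DESeq2 called 0. At an unadjusted edgeR p under 0.05, 11 were lower and 0 higher, against 7.08% and 6.21% of all tested genes. The 3 with the smallest p were RRP7A (-0.25, SE 0.07), SURF6 (-0.26, SE 0.07) and the helicase DHX37 (-0.29, SE 0.08), which helps release U3. Of 11 snoRNP assembly factors listed 10 were found, and 6 of these were negative, with a median of -0.08. RUVBL1, an ATPase of the complex that assembles box C/D particles, had 200.2 ± 3.67 CPM in untreated cells and 166 ± 10.46 after raffinose (SD, n = 3 each; -0.27, SE 0.06). DESeq2 called RUVBL1 lower (adjusted p = 0.0338), and edgeR did not (adjusted p = 0.180). Its partner RUVBL2 had -0.19 (SE 0.06) and NUFIP1 -0.15 (SE 0.08).

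Among 15 other RNA polymerase I subunits and factors, of 18 listed, 7 were negative and 8 positive, with a median of 0.02. Beside TAF1C, the smallest p belonged to the nucleolar remodelling protein gene BAZ2A (-0.17, SE 0.06) and to the terminator-binding factor TTF1 (-0.22, SE 0.09). Of 15 snoRNA host genes without a protein product 8 were negative and 7 positive, with a median of -0.03 and 0 at an unadjusted edgeR p under 0.05. SNHG17 (-0.15, SE 0.08), SNHG5 (-0.15, SE 0.09) and SNHG16 (-0.13, SE 0.10) had the smallest p. Both edgeR and DESeq2 called 0 of these host genes.

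Libraries of 1 group differed from each other in a way that followed transcript length. Among the 35 genes, untreated replicate 1 minus the mean of untreated replicates 2 and 3 was 0.24 for NOP10, whose longest GENCODE 29 transcript has 554 bases. It was -0.31 for both UTP20 and POLR1A, with 9025 and 12749 bases. Across the 35 genes, which share these libraries and are not independent, this difference had a Pearson r of -0.59 and a Spearman rho of -0.56 with log2 length. Raffinose replicate 3 minus the mean of the other 2 went the other way (r = 0.44, rho = 0.42). Raffinose minus untreated showed little relation with length among the 35 genes (r = 0.03, rho = -0.04). Over 9826 tested genes at 10 CPM or more, the relation with length had r = -0.28 and rho = -0.48 for untreated replicate 1, and r = 0.13 and rho = 0.18 for raffinose minus untreated.

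**Figure D5:**
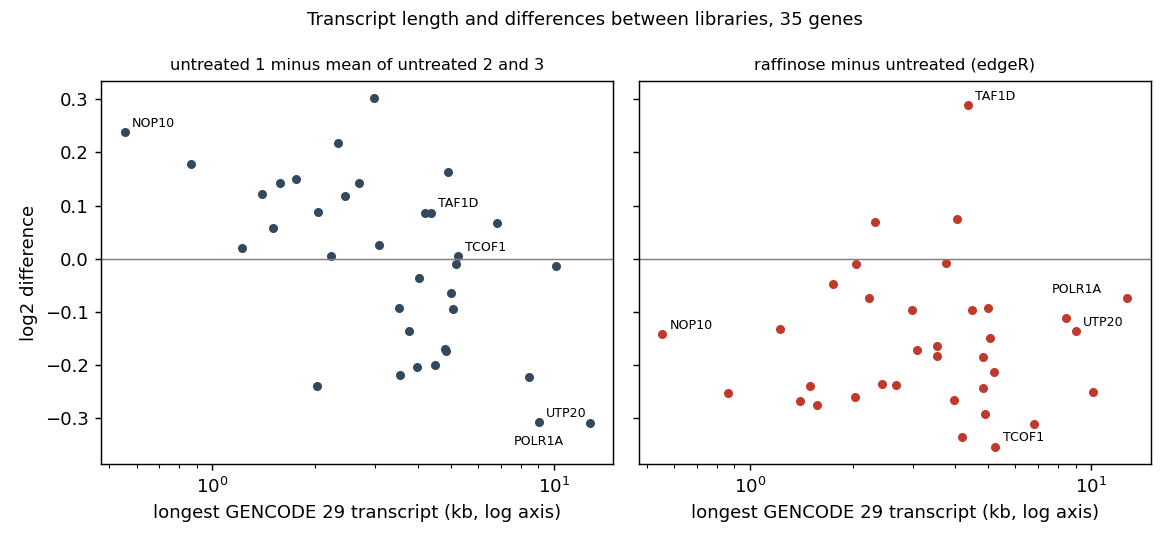
Log2 differences of the 35 genes against the longest GENCODE 29 transcript (kb, log axis), with 1 point per gene: untreated replicate 1 minus the other untreated libraries on the left, raffinose minus untreated on the right. Short transcripts such as NOP10 were high and long ones such as UTP20 and POLR1A low in untreated replicate 1, a slope the right panel does not show.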

How the data were processed

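Estimated counts and FPKM values stand side by side for each library in 1 table that the authors deposited. A gene without reads is listed at 0.0001 FPKM. Multiples of 4 are over-represented among low counts, so a read pair may add 4. StringTie 1.3.4d, HISAT2 2.0.4, cutadapt 1.9, DESeq2 and edgeR are listed, with no role, in the submitters' processing notes. No source used here gives the genome build or the strand setting. Poly(A) RNA was read as pairs of 150 bases from dUTP libraries, per the labels' protocols.

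The deposited counts were the input of edgeR 4.0.16 (R 4.3.3): filterByExpr (minimum count 10), TMM scaling, glmQLFit and glmQLFTest, Benjamini-Hochberg adjustment over 18863 genes, called under 0.05. CPM are TMM-scaled, and log2 fold changes are raffinose over untreated. SE is the absolute log2 fold change over the root of the F statistic. Alternatives were DESeq2 1.42.0, limma 3.58.1 on log2(FPKM + 1) and log2(FPKM + 0.1), other scalings and filters, counts divided by 4, a replicate block and each library left out. The edgeR, DESeq2 and limma fits were tested on simulated counts with known changes: edgeR and limma missed most of the smallest changes, and DESeq2 recovered more but made many more false calls.

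The genes and lists were chosen with earlier results of these data known. Values per library are given for the 2 smallest p of each role, genes at an unadjusted p under 0.01, genes DESeq2 called and genes with a positive fold change, and of each pathway list the 3 smallest p are named.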

Additional observations from a re-analysis of the deposited data

How the results depend on the processing

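Against 7 genes called higher and 16 lower over the whole table, DESeq2 called 253 and 386, the FPKM filter at 1 gave 15 and 27, counts divided by 4 gave 11 higher, limma on log2(FPKM + 0.1) gave 11 higher and the replicate block gave 0 and 0, with 1932 genes at an unadjusted p under 0.05. Leaving out a library gave 0 to 15 higher and 4 to 13 lower. Without untreated replicate 3 edgeR gave 0 higher and 4 lower, while 1969 genes had an unadjusted p under 0.05. It gave 3 higher and 8 lower without raffinose replicate 2, 15 higher and 8 lower without untreated replicate 1, and 12 higher and 8 lower without untreated replicate 2. Of the 35 genes, DESeq2 called 1 higher and 5 lower, and the other 14 alternatives called 0, the replicate block included, with 11 to 17 lower at an unadjusted p under 0.05. The median of the 35 genes was -0.16 with the FPKM filter, -0.13 and -0.14 under limma with a pseudocount of 1 and 0.1 and -0.20 to -0.15 with a library left out, and 29 to 33 genes were negative in each alternative.

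Genes that turned were never called. NOP58 had 0.0053 with the FPKM filter and 0.027 under both limma fits, and -0.038 to 0.018 with a library left out. RRN3 had 0.0072, 0.029 and 0.030 in those settings and -0.053 to 0.016. With a library left out NOP56 ran from -0.24 to 0.045, NCL from -0.051 to 0.14, NAF1 from -0.025 to 0.14, NPM1 from -0.074 to 0.0037 and POLR1A from -0.17 to 0.0087. The cause was not tested.

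Libraries that share a replicate number had correlations of their deviations of -0.0089, -0.033 and 0.0063, so no pairing was seen. The lowest count of any of the 35 genes in a library was 817, for NAF1.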

Other observations

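Of the 27 snoRNA genes inside the 35 genes, 5 had enough counts to be tested, and the highest count in any library was 201, for SNORA18 in TAF1D. SNORA18 had 181, 190 and 169 counts with raffinose, in order of replicate number, and 187, 201 and 135 without. The libraries were made from poly(A) RNA, and mature snoRNAs have no poly(A) tail.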
